A study of Mus musculus with 6 samples.

Results

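The genes described here are 10 that serve the response to endoplasmic reticulum (ER) stress: Hspa5, Hsp90b1, Calr, Pdia4, Ddit3, Xbp1, Atf4, Dnajb9, Herpud1 and Sdf2l1. Their members on the array are all probe sets that the platform annotation gives a single gene symbol equal to 1 of these names, which is 23 of 45037 probe sets. Each gene has between 1 probe set (Dnajb9, Sdf2l1) and 4 (Xbp1), and 22 of the 23 passed the filter on low signal and were tested. The untested probe set, 1450620_at of Pdia4, lay between 3.57 and 3.88 on all arrays, under the filter level of 4.72 log2.

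Lung was taken from adult female F1 mice of 2 crosses, with 3 arrays each. The AKR_F1 group came from AKR/J × FVB/NJ and the DBA_F1 group from DBA/2J × FVB/NJ, so that every animal carried an FVB/NJ chromosome set and the groups differ in the other set. The animals of both groups were killed by cervical dislocation under Avertin, and the lungs were frozen before Trizol extraction of total RNA. The comparison addresses basal differences between these genotypes, with no treatment that induces ER stress. The labels do not say that each array holds a separate animal, so p-values measure only the spread between these samples.

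Proteins that enter the secretory pathway fold in the ER with the help of chaperones, lectins and disulphide isomerases. When unfolded protein builds up, the sensors Ire1 (Ern1), Perk (Eif2ak3) and Atf6 are activated, and the transcription factors Xbp1, Atf4 and cleaved Atf6 raise chaperones, degradation factors and, with lasting stress, the factor Chop (Ddit3). In lung, alveolar type 2 cells, club cells, mucous cells and plasma cells secrete much protein and hold much ER.

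Many ER chaperone genes carry a short promoter element, the ER stress element (ERSE), at which NF-Y and Atf6 bind together. It was searched on both strands as CCAAT, then any 9 bases, then CCACG, in RefSeq promoter windows of the GRCm38.p6 build, which run from 250 bases before to 50 bases after each annotated start. All 10 genes had a window. ERSE was present in 3 of the 10 (Hspa5, Hsp90b1, Calr) and in 0.119% of all 32851 windows. The related ERSE-II, searched as ATTGG, then any base, then CCACG, was present in Herpud1 and in 0.0365% of all windows. The elements of these 4 genes are shown because they are rare among all promoters, and the other 6 windows held neither. Since these elements are known from ER stress genes, their presence here is a description and not an independent result. Capitals mark the fixed letters of the element, each sequence is read along the gene's own strand, and elements on the opposite strand appear reversed and complemented.
Hspa5 (chr2:34772010-34772058, plus strand): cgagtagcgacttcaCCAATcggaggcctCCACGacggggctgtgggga
Hsp90b1, distal element (chr10:86705623-86705671, minus strand): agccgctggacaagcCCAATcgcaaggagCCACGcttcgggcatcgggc
Hsp90b1, proximal element (chr10:86705518-86705566, minus strand): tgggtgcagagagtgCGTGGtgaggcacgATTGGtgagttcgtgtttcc
Calr (chr8:84847060-84847108, minus strand): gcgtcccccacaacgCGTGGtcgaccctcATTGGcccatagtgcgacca
Herpud1 (chr8:94386362-94386402, plus strand): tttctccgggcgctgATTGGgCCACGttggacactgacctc
The element starts 65 bases before the annotated start in Hspa5, 52 in Herpud1, 162 in Calr, and 212 and 107 in Hsp90b1. The XBP1-binding UPRE (TGACGTGG, 0.676% of windows) and the ATF4-type element CARE (TGATGNAAT, 0.965% of windows) were in 0 of the 10 windows. Elements outside the windows, or with a mismatch to the letters searched, would be missed.

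**Figure D1:**
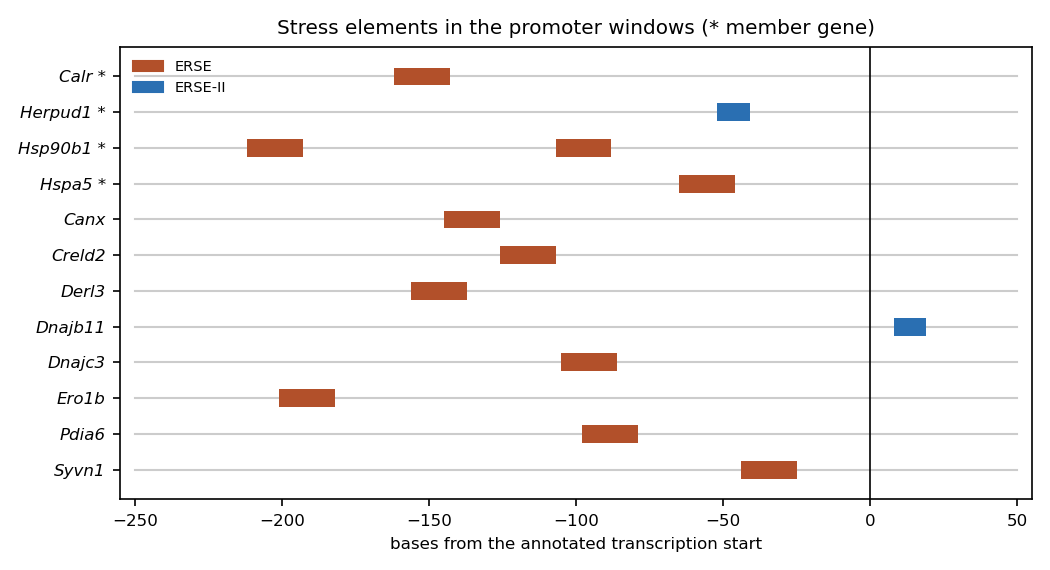
Positions of ERSE (orange) and ERSE-II (blue) in promoter windows, in bases from the annotated transcription start, for the 4 stress genes with an element (asterisks) and 8 other ER pathway genes; grey lines are the windows. All elements but that of Dnajb11 lie upstream; the farthest starts 212 bases before the transcription start and the nearest 44.

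In lung, none of the 10 genes differed between the crosses past the threshold, and most had a slightly higher mean in AKR_F1. Group differences were tested with limma on the deposited log2 signals, as AKR_F1 minus DBA_F1, with Benjamini-Hochberg adjustment over 27022 probe sets and a call at an adjusted p under 0.05. Where a gene had several tested probe sets, its brightest one by mean stands for it. Of the 10 genes 0 were called and 4 had an unadjusted p under 0.05, all toward AKR_F1, beside 2.48% of all 13202 tested genes called and 10.7% with an unadjusted p under 0.05 toward AKR_F1. The mean was higher in AKR_F1 for 9 of the 10 genes, as for 55.1% of all tested genes. Their median difference was 0.085, against 0.015 over all tested genes. In 4 of the 10 genes all AKR_F1 arrays lay above all DBA_F1 arrays, as in 14.2% of all tested genes, and in 0 all lay below, as in 10% of all tested genes. Of the 22 probe sets 0 were called (2.62% of all tested), 8 had an unadjusted p under 0.05 toward AKR_F1 (11% of all tested), 8 had all AKR_F1 arrays above all DBA_F1 arrays (14.6%), and 0 had them all below (9.02%). Each of the 10 intervals at 95% excluded a difference of 1 log2 in either direction, and the highest upper bound was 0.45.

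AKR_F1 replicate 3 stood apart from its group. Over the tested probe sets it correlated at 0.975 and 0.976 with the other AKR_F1 arrays, which correlated at 0.995 with each other, and at 0.984 to 0.986 with the DBA_F1 arrays. Markers of other tissues moved with the arrays as well. Of 11 squamous epithelium markers 11 had lower means in AKR_F1, from Krt13 (-5.76) to Krt6a (-0.06). By limma 0 of the 11 were called and 5 had an unadjusted p under 0.05 (8.41% of all tested genes toward DBA_F1). Their summed linear signal was 508 to 15743 in AKR_F1 and 12050 to 19152 in DBA_F1, since AKR_F1 replicates 1 and 2 were low and AKR_F1 replicate 3 was within the DBA_F1 range. The 8 skeletal muscle markers (Myh1 -4.28 to Pvalb -0.44) were likewise low on those arrays, with sums of 437 to 17707 and 10553 to 15697. All 8 fat markers were lower on every AKR_F1 array than on any DBA_F1 array (10% of all tested genes). Their sums were 1437 to 2798 in AKR_F1 and 4366 to 12153 in DBA_F1. Of these markers Adipoq, Lep, Fabp4, Cidec and Pck1 were called, beside 1.06% of all tested genes toward DBA_F1. Ucp1 (-4.26) and Retn (-0.60) were not called. The 10 measured lung markers were bright on every array, at 10.91 log2 or more, with sums of 105550 to 110638 in AKR_F1 and 99193 to 103542 in DBA_F1. They ran from Scgb1a1 (-0.06) to Sftpb (0.32, called), with a median of 0.13, beside 0.085 for the stress genes. Of the 10 lung markers 9 had a higher mean in AKR_F1 (55.1% of all tested genes). By limma 5 had an unadjusted p under 0.05 toward AKR_F1 (10.7%). All AKR_F1 arrays lay above all DBA_F1 arrays in 5 (14.2%) and below in 1 (10%). A shift toward AKR_F1 was thus not particular to the stress genes. The fat marker and Sftpb calls were all lost without AKR_F1 replicate 2 (adjusted p from 0.0809 to 0.166), and all but that of Cidec without at least 1 other array too. The sums of the 6 plasma cell markers, 2229 to 2495 and 2169 to 2355, overlapped, and Irf4 (-0.31) and Prdm1 (0.34) were the extremes. Without AKR_F1 replicate 3, Krt13 differed by -8.68 (adjusted p = 1.2e-05), Myh1 by -6.69 (8.3e-05) and Pvalb by -1.13 (0.0334), and all 3 were called. By each marker's brightest probe set the lowest value was 3.29 log2, and none was listed at 0. Dimmer probe sets read lower, such as 1441863_x_at of Krt13 with 2.65 on AKR_F1 replicate 2. The tissue source of the squamous, muscle and fat marker signal was not tested. In whole-tissue RNA, fewer cells of a type and less RNA per cell cannot be told apart.

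Hspa5 encodes BiP, the main Hsp70 chaperone of the ER lumen, which also holds the 3 stress sensors inactive. Its brightest probe set, 1416064_a_at, read 11.71, 11.74 and 11.56 in AKR_F1 and 11.34, 11.38 and 11.52 in DBA_F1, always in the order of replicates 1 to 3. The groups did not overlap, but AKR_F1 replicate 3 and DBA_F1 replicate 3 nearly met. The difference was 0.26 ± 0.069 log2 (SE, n = 3 per group), or 19.4% higher in AKR_F1, with a limma adjusted p of 0.117. Probe set 1427464_s_at also had all AKR_F1 arrays above all DBA_F1 arrays and differed by 0.20 (adjusted p = 0.147). The dimmest, 1447824_x_at, differed by 0.0017, with an interval from -0.14 to 0.14. In Affymetrix names, the ending _s_at marks probes shared by several transcripts and _x_at marks probes that can bind unrelated ones. Leaving out AKR_F1 replicate 3 gave Hspa5 a difference of 0.31 and an adjusted p of 0.0498. With AKR_F1 replicate 3 alone against DBA_F1 the difference was 0.14, and with the mean of the squamous markers as a covariate it was 0.15. These fits are not separate checks, since with that covariate the cross difference also rests mainly on AKR_F1 replicate 3.

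Hsp90b1 encodes Grp94, the Hsp90 of the ER, which folds integrins and toll-like receptors. Probe set 1415889_a_at read 10.81, 10.86 and 10.72 in AKR_F1 and 10.74, 10.63 and 10.85 in DBA_F1, and the groups overlapped (0.055 ± 0.065, adjusted p = 0.705). With 1 array left out the difference ran from 0.0023 without DBA_F1 replicate 2 to 0.11 without DBA_F1 replicate 3. Its second probe set, 1438040_a_at, read 10.25, 10.23 and 10.12 against 10.05, 10.07 and 10.02. There the groups were apart by 0.15 ± 0.049 (adjusted p = 0.172).

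Calr encodes calreticulin, the soluble lectin that binds newly made glycoproteins and calcium. By 1417606_a_at it read 12.042, 12.026 and 11.975 in AKR_F1 and 11.891, 11.890 and 11.971 in DBA_F1. The groups did not overlap, although replicate 3 of AKR_F1 lay only just above that of DBA_F1, and the difference was 0.097 ± 0.042 (adjusted p = 0.278). Its other probe sets, 1456170_x_at and 1433806_x_at, each differed by 0.035, with overlapping groups. Pdia4 encodes the disulphide isomerase ERp72. It read 8.24, 8.09 and 8.07 in AKR_F1 and 8.13, 8.15 and 8.32 in DBA_F1, the only gene of the 10 with a lower mean in AKR_F1 (-0.066 ± 0.075, adjusted p = 0.693). With 1 array left out its difference ran from -0.12 without AKR_F1 replicate 1 to -0.0074 without DBA_F1 replicate 3. Sdf2l1, a luminal partner of ER DnaJ proteins that helps keep clients soluble, read 6.77, 6.73 and 6.68 against 6.59, 6.65 and 6.87. Its 3 DBA_F1 arrays enclosed all AKR_F1 arrays, and the difference was 0.030 ± 0.087 (adjusted p = 0.894).

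**Figure D2:**
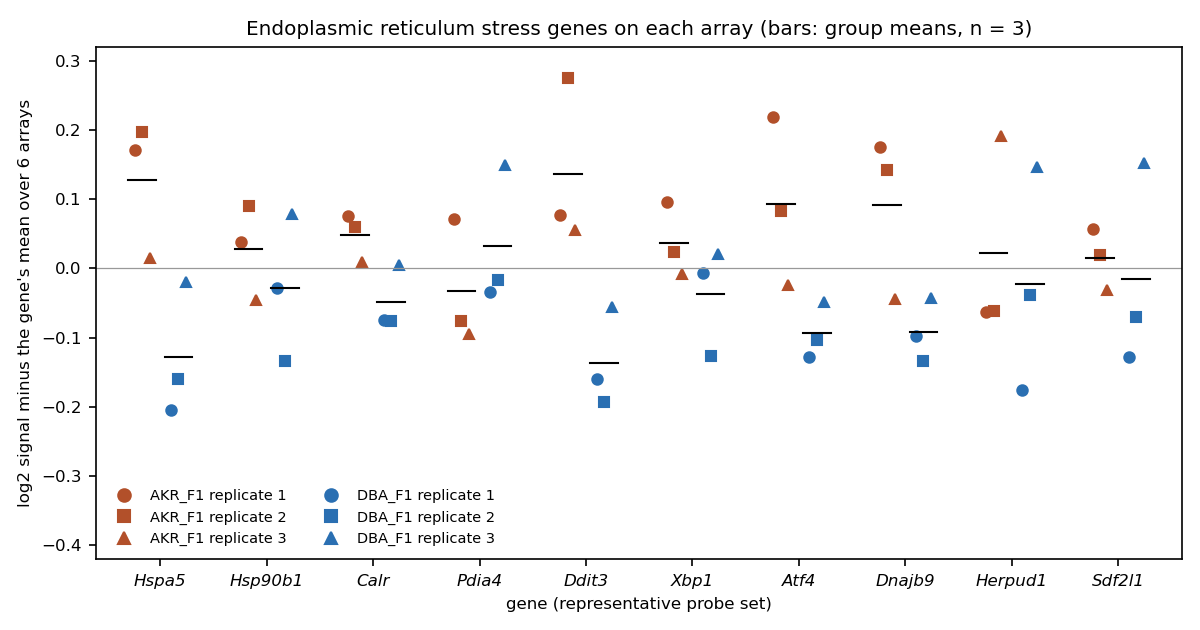
Log2 signal of each gene's representative probe set on the 6 arrays, minus that gene's mean over all arrays; orange is AKR_F1, blue is DBA_F1, marker shapes are replicates and black bars are group means (n = 3). Hspa5, Calr, Ddit3 and Atf4 show groups that do not overlap, and Herpud1 is highest on replicate 3 of both groups.

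The 3 transcription factors of the response also had higher means in AKR_F1. Ddit3 encodes Chop, a C/EBP-family factor that promotes cell death under lasting stress. It had the largest difference of the 10 genes. Probe set 1417516_at read 8.10, 8.29 and 8.07 in AKR_F1 and 7.86, 7.83 and 7.96 in DBA_F1, and the groups did not overlap. The difference was 0.27 ± 0.077, or 20.8% higher in AKR_F1 (adjusted p = 0.132, interval 0.091 to 0.45). The second probe set, 1443897_at, read 5.42, 5.24 and 5.31 against 4.93, 5.12 and 4.97, again with no overlap (0.32 ± 0.089, adjusted p = 0.13). With the mean of both probe sets in the test, Ddit3 differed by 0.30 and was called (adjusted p = 0.0427). By 1417516_at the difference was 0.31 without AKR_F1 replicate 3 (adjusted p = 0.105) and 0.19 with that array alone.

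Atf4 encodes the factor whose translation rises when Perk or another kinase phosphorylates eIF2alpha, so its mRNA level is only part of its control. Probe set 1448135_at read 10.10, 9.96 and 9.85 in AKR_F1 and 9.75, 9.77 and 9.83 in DBA_F1. The groups did not overlap, with AKR_F1 replicate 3 close to DBA_F1 replicate 3, and differed by 0.19 ± 0.068 (adjusted p = 0.214). With 1 array left out the difference ran from 0.12 without AKR_F1 replicate 1 (adjusted p = 0.473) to 0.24 without AKR_F1 replicate 3 (adjusted p = 0.0908). It was 0.07 with AKR_F1 replicate 3 alone and 0.078 with the squamous covariate. The dimmer probe sets 1438992_x_at and 1439258_at differed by 0.13 and -0.028, with overlapping groups.

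Xbp1 encodes the factor made active when Ire1 splices its mRNA. The probe sets give the sum over the gene's transcripts that they match, and splicing was not measured here. The brightest, 1437223_s_at, read 11.47, 11.40 and 11.37 in AKR_F1 and 11.37, 11.25 and 11.40 in DBA_F1, with overlap (0.074 ± 0.054, adjusted p = 0.516). With 1 array left out the difference ran from 0.029 without DBA_F1 replicate 2 to 0.10 without DBA_F1 replicate 3. Probe set 1420886_a_at read 11.32, 11.21 and 11.21 against 11.06, 10.95 and 11.08, without overlap, and its adjusted p of 0.101 (0.21 ± 0.054) was the lowest among the 22 probe sets. The other Xbp1 probe sets, 1420011_s_at and 1420012_at, differed by 0.057 and 0.13, with overlapping groups.

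Dnajb9 encodes ERdj4, a DnaJ co-chaperone of BiP and a target of Xbp1. It read 10.087, 10.053 and 9.867 in AKR_F1 and 9.813, 9.777 and 9.868 in DBA_F1. AKR_F1 replicates 1 and 2 stood above the other 4 arrays, while AKR_F1 replicate 3 lay just under DBA_F1 replicate 3 (0.18 ± 0.067, adjusted p = 0.215). Without AKR_F1 replicate 3 the difference was 0.25 (adjusted p = 0.0552). With that array alone against DBA_F1 it was 0.048, and with the squamous marker mean as a covariate it was 0.054. Across the 6 arrays, the Pearson r with the squamous mean was -0.97 for Dnajb9, -0.89 for Atf4, -0.87 for Hspa5, -0.84 for Calr, -0.79 for Ddit3, -0.72 for Xbp1 and -0.68 for Hsp90b1. It was -0.36 for Sdf2l1, -0.055 for Pdia4 and 0.33 for Herpud1. These values describe 6 arrays that also differ in cross. With the fat marker mean, r was -0.89 for Ddit3, -0.79 for Hspa5, -0.78 for Calr, -0.64 for Dnajb9 and -0.57 for Atf4. It was -0.55 for Xbp1, -0.52 for Hsp90b1, -0.42 for Herpud1, -0.30 for Sdf2l1 and 0.36 for Pdia4. With the squamous covariate 0 of the 10 genes had an unadjusted p under 0.05, but that fit cannot separate these markers from cross. The squamous mean was low on AKR_F1 replicates 1 and 2 only, so the fit mainly compares AKR_F1 replicate 3 with DBA_F1. Its differences were therefore close to those with that array alone, as for Dnajb9 (0.054 and 0.048). The part of the squamous markers in these differences was not tested.

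Herpud1 encodes an ER membrane protein of the degradation machinery that ubiquitin ligases use. It varied more within the groups than between them. Probe set 1448185_at read 11.10, 11.10 and 11.36 in AKR_F1 and 10.99, 11.13 and 11.31 in DBA_F1, and the difference was 0.045 ± 0.10 (adjusted p = 0.859). The second probe set, 1435626_a_at, read 10.36, 10.33 and 10.52 against 10.29, 10.42 and 10.64, for a difference of -0.042. Both probe sets were highest on replicate 3 of each group. The mean of 11 immediate early genes was highest on the same arrays, at 9.22, 9.46 and 10.07 in AKR_F1 and 9.02, 9.42 and 9.97 in DBA_F1. Herpud1 and that mean had a Pearson r of 0.98 over the 6 arrays, against -0.15 to 0.50 for the other 9 genes. Atf3, an early stress factor of the eIF2alpha kinase branch, read 6.73, 6.74 and 8.57 against 6.50, 6.76 and 8.02. The labels give no more than the replicate number, and why these genes follow it in both groups was not tested. Between the groups, 10 of the 11 immediate early genes had a higher mean in AKR_F1, as for 55.1% of all tested genes. Their median difference was 0.14, Myc (-0.24) alone had a lower mean, and Egr2 (0.26) was the highest. By limma 0 were called and 0 had an unadjusted p under 0.05, but the intervals were wide, as for Egr1 (-1.21 to 1.37).

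**Figure D3:**
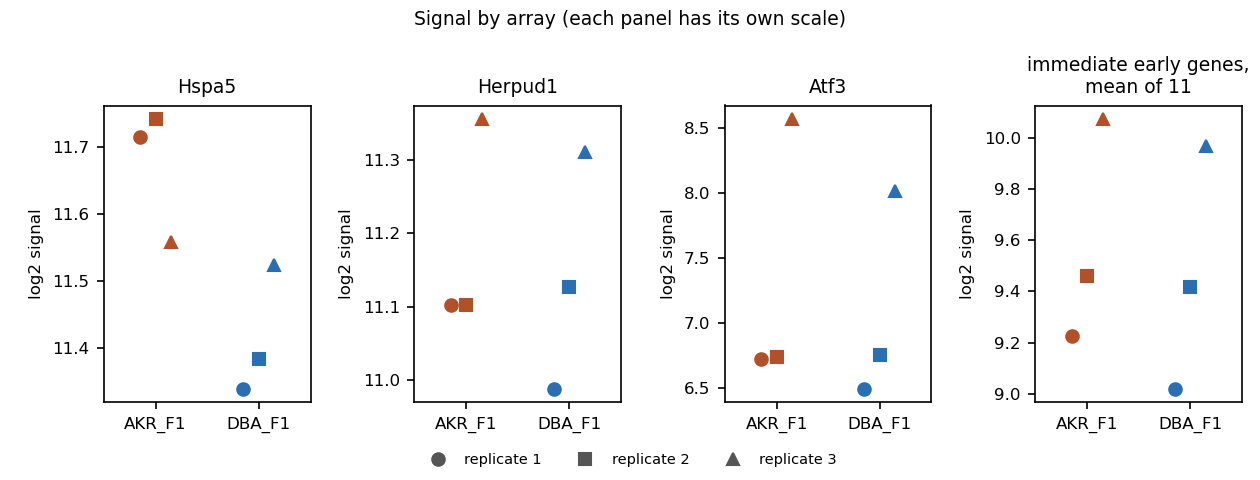
Log2 signal on each array for Hspa5, Herpud1, Atf3 and the mean of 11 immediate early genes, with AKR_F1 at left and DBA_F1 at right of each panel, marker shapes for replicates and separate scales. Replicate 3 is the highest array of both groups for all panels but Hspa5, where AKR_F1 replicate 3 is the lowest of its group.

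Some probe sets of the same gene differed in how far apart they placed the crosses. Within each array, the brightest Xbp1 probe set exceeded 1420886_a_at by 0.15, 0.19 and 0.16 log2 in AKR_F1 and by 0.31, 0.30 and 0.31 in DBA_F1. The brightest Hspa5 probe set exceeded 1447824_x_at by 3.57, 3.67 and 3.37 in AKR_F1 and by 3.28, 3.23 and 3.34 in DBA_F1. In 6 of 12 such pairs among the stress genes this within-array difference did not overlap between the groups, beside 19.6% of 9970 pairs over all genes. The median size of the change between groups was 0.061 for the 12 pairs and 0.079 for all pairs. An effect of parental sequence differences on probe binding was not tested, since probe sequences were not used here.

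**Figure D4:**
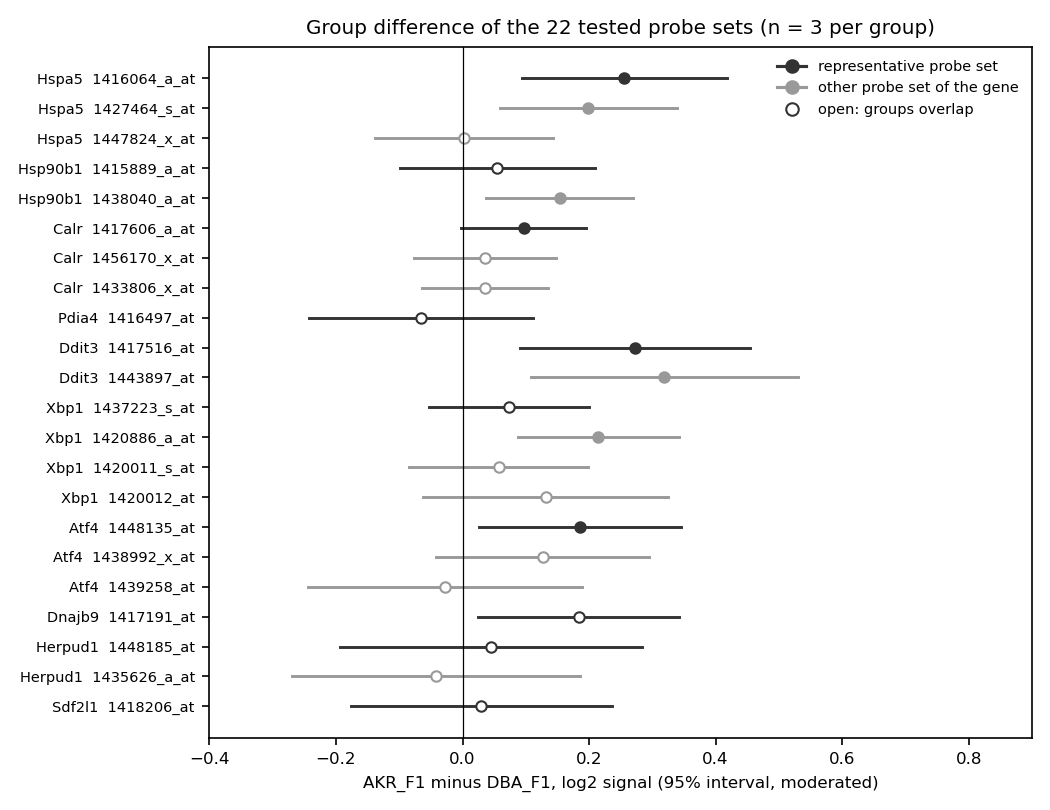
AKR_F1 minus DBA_F1 difference of the 22 tested probe sets in log2 signal, with moderated 95% intervals (n = 3 per group); dark points are representative probe sets, grey the others, and open points mark groups that overlap. All intervals lie between -0.27 and 0.53, and 8 probe sets have filled points, all toward AKR_F1.

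Among 78 tested genes of the wider ER pathway, Manf, Edem1 and Ssr1 were called higher in AKR_F1 and Hspa13 was called lower by its brightest probe set. That is 3 of 78 toward AKR_F1 and 1 of 78 toward DBA_F1, beside 1.42% and 1.06% of all tested genes. With the mean of each gene's probe sets, or with the squamous covariate, 0 were called toward AKR_F1. Calls lost with that covariate are no test of the squamous markers, since the fit rests mainly on AKR_F1 replicate 3. The median difference of the 78 was 0.037. The lists behind this count cover sensors, folding, degradation, translocation with glycosylation, and the eIF2alpha kinase branch.

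Other folding genes had the widest spread. Manf, a small secreted ER stress protein, read 10.22, 10.35 and 10.07 in AKR_F1 and 9.87, 9.76 and 9.84 in DBA_F1, a 1.31-fold difference (0.39 ± 0.074, limma adjusted p = 0.0487). Manf was called in only 5 of 18 alternative settings. Its call was lost without any array except AKR_F1 replicate 3 (adjusted p up to 0.186), with the replicate block (0.0905), without a trend (0.0762) and with the squamous covariate (0.25, adjusted p = 0.227). It was also lost with the mean of probe sets (0.0594), median centring (0.0608), no filter (0.0528) or a filter on the lowest 60% (0.0503). Hspa13, an Hsp70-like ATPase of the microsomes, read 7.74, 7.66 and 7.60 in AKR_F1 and 9.12, 8.97 and 8.93 in DBA_F1 by 1453172_at (-1.34 ± 0.069, adjusted p = 0.000305). Its 4 probe sets did not share a direction. Probe set 1430026_at was also called (-0.79, adjusted p = 0.0114), 1433772_at differed by -0.05, and 1429502_at by 0.50 (adjusted p = 0.0503). In this list of 18 genes 5 had an unadjusted p under 0.05 toward AKR_F1 and 2 toward DBA_F1 (8.41% of all tested genes), and the median difference was 0.079. Hyou1, a large Hsp70 that works with BiP, read 8.49, 8.49 and 8.37 against 8.61, 8.72 and 8.85. It therefore lay lower on every AKR_F1 array, opposite to Hspa5, but missed the threshold (-0.28 ± 0.075, adjusted p = 0.117); it was singled out after its values were seen.

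Of 16 degradation genes 1 was called. Edem1, which draws misfolded glycoproteins into degradation, read 8.71, 8.72 and 8.83 in AKR_F1 and 8.41, 8.31 and 8.35 in DBA_F1, a 1.32-fold difference (0.40 ± 0.056, adjusted p = 0.0175). Its second probe set differed by 0.25 and was not called. The call was lost without AKR_F1 replicates 1 or 2 or DBA_F1 replicate 2 (adjusted p up to 0.0818), with the mean of probe sets (0.0706) and with the squamous covariate (0.0527). The lowest difference in this list was that of Erlec1 (-0.04), and the median was 0.065. Of 18 translocation and glycosylation genes 1 was called, Ssr1, a subunit of the translocon-associated complex (0.26 ± 0.041, adjusted p = 0.026). Another Ssr1 probe set, 1417764_at, differed by 0.67 and was called, while the remaining pair differed by -0.045 and -0.010. The Ssr1 call was lost without AKR_F1 replicates 1 or 2 or DBA_F1 replicate 2 (adjusted p up to 0.132). It was also lost with the replicate block (0.0776), without a trend (0.0657), with the mean of probe sets (0.0808) and with the squamous covariate (0.158). Stt3a, a catalytic subunit of oligosaccharyltransferase, had the lowest difference (-0.10), and the median was 0.041.

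Of the 9 tested sensors and related factors 0 were called by limma, and 0 had an unadjusted p under 0.05. Their differences ran from -0.11 (Creb3l1) to 0.14 (Creb3l2), with a median of 0.0031. The sensors themselves differed by -0.037 (Ern1), 0.078 (Eif2ak3) and 0.014 (Atf6). Of 17 genes of the eIF2alpha kinase branch 0 were called and 2 had an unadjusted p under 0.05. These were 1 toward AKR_F1 (10.7% of all tested genes) and 1 toward DBA_F1 (8.41%). The extremes were the chromatin-associated stress protein Nupr1 (-0.25, adjusted p = 0.194) and Atf3 (0.26, adjusted p = 0.86), and the median was 0.024. Outside the ER, 2 of 11 heat shock genes of the cytosol and mitochondria were called, both toward AKR_F1, beside 1.42% of all tested genes. They were the constitutive Hsp70 Hspa8 (0.31, limma adjusted p = 0.0453) and its co-chaperone Dnaja1 (0.47, adjusted p = 0.0367). The median of that list was 0.31, between Hspb1 (-0.09) and the inducible Hspa1b (1.18 ± 0.76, adjusted p = 0.458), which read 11.91 on AKR_F1 replicate 3 and between 8.34 and 10.22 on the other arrays. The Hspa8 call was lost without any array except DBA_F1 replicate 1 (adjusted p up to 0.17) and that of Dnaja1 without any array except replicate 3 of AKR_F1 and replicate 2 of DBA_F1 (up to 0.141). Of 4 Hspa8 probe sets 1 was called, and of 3 Dnaja1 probe sets 1. Hspa8 was called in 6 of 18 alternative settings and Dnaja1 in 11. Both calls were lost with the squamous covariate (adjusted p = 0.194 and 0.179), and that of Hspa8 with the mean of probe sets (0.457).

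**Figure D5:**
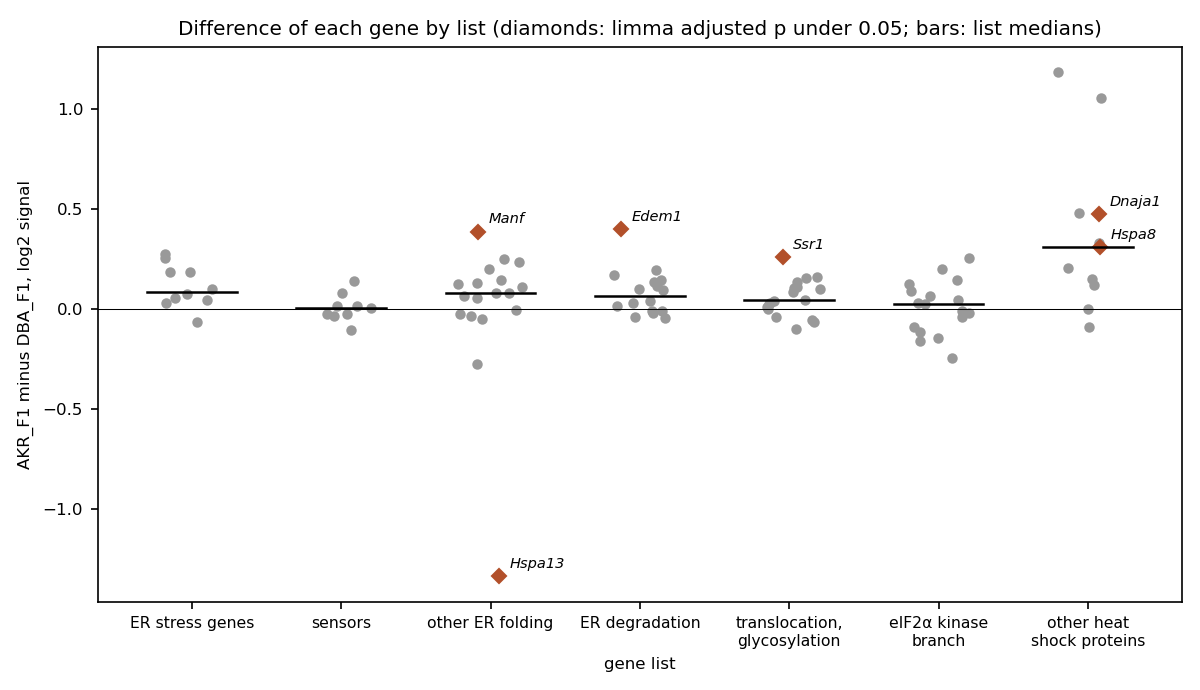
AKR_F1 minus DBA_F1 difference in log2 signal for each tested gene, by list; orange diamonds are genes called at a limma adjusted p under 0.05 and black bars are list medians. The stress genes have a median of 0.085 and no diamond, and Hspa13 at -1.34 is the lowest point of the plot.

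The pathway genes were also sorted by promoter element. Of the 88 tested stress and pathway genes 74 had a promoter window, and 12 of these held ERSE or ERSE-II. Manf and Hspa13, both called, had no entry in the promoter table and are in neither group. Those 12 had a median difference of 0.088, from Ero1b (-0.051) to Hspa5 (0.26), and 0 were called. The 62 genes with a window and neither element had a median of 0.042, from Nupr1 (-0.25) to Edem1 (0.40), and 2 were called. Over all tested genes 2.48% were called. In 4 of the 12 and in 15 of the 62 all AKR_F1 arrays lay above all DBA_F1 arrays (14.2% of all tested genes), and in 0 of the 12 and 4 of the 62 all lay below (10%). The differences between these medians and between these counts were not tested.

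The mean of the 10 genes, each centred on its own mean, read 0.092, 0.075 and 0.0023 in AKR_F1 and -0.10, -0.10 and 0.039 in DBA_F1. DBA_F1 replicate 3 thus lay above AKR_F1 replicate 3. Among 2421 other genes with a range of at least 0.5 log2 over the arrays, those most like this profile were the polarity gene Pard6b (Pearson r = 0.97 over 6 arrays), the matricellular Ccn1 (0.97) and Edil3 (0.97). The most opposite were the smooth muscle actin Actg2 (-0.996), Dclk1 (-0.98) and the water channel Aqp4 (-0.97). These correlations are descriptions of 6 arrays and none of the 6 genes was called.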

How the data were processed

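Affymetrix 3' arrays with biotin-labelled target measured total RNA of 6 lung samples, grouped by cross from the labels. The deposited log2 values give a signal for every probe set on each of the arrays. MAS5 and RMA are named, without versions, per the submitters' processing notes, and which made the table is not given in the sources used here. The array medians, 5.46 to 5.49, were nearly equal, so values were used as deposited. Control probe sets (64) and the lowest 40% of probe sets by mean (4.72 or less) were left out, which kept 27022. limma 3.58.1 in R 4.3.3 (lmFit, eBayes with trend, two-sided, group as the only term) gave differences, standard errors, 95% intervals and Benjamini-Hochberg adjusted p-values. The fit was also run on simulated data with larger differences than those of the stress genes. That run does not show how often differences as small as theirs would be called. No detection calls were used. Precision is limited by how few arrays there are. Genes named are all members, the called genes and the extremes of each list, and the 3 most like and 3 most opposite genes. Hyou1, Egr1, Ern1, Eif2ak3 and Atf6 are named besides. The members and lists were chosen with earlier results of these data known. Promoter windows are RefSeq's, build GRCm38.p6, matched by symbol.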

Additional observations from a re-analysis of the deposited data

How the results depend on the processing

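The 10 stress genes were recomputed under 18 alternatives. Their differences kept direction in 173 of 180 recomputed values, and 3 were called. The count of called stress genes, 0 in the test as reported, was 1 with array weights (Hspa5, adjusted p = 0.049) and 1 with the mean of a gene's probe sets (Ddit3), and ran from 0 to 1 with 1 array left out. The count of called stress probe sets was 1 with array weights and 0 to 1 with 1 array left out. The count of other ER pathway genes, 4 as reported (3 toward AKR_F1, 1 toward DBA_F1), was 1 for AKR_F1 replicate 3 alone against DBA_F1 (0 toward AKR_F1, 1 toward DBA_F1), 2 without a trend (1 and 1), 2 with the mean of probe sets (0 and 2), 7 with the most variable probe set (4 and 3), 1 with the squamous covariate (0 and 1), and 1 to 5 with 1 array left out (1 without AKR_F1 replicates 1 or 2 or DBA_F1 replicate 2). The count of all called probe sets, 707 as reported, was 85 for AKR_F1 replicate 3 alone, 1198 with array weights, 266 with the squamous covariate, and 198 to 1171 with 1 array left out (for AKR_F1, 198 without replicate 1, 199 without replicate 2 and 1171 without replicate 3; for DBA_F1, 249 without replicate 2). The cause of these shifts, which went in both directions, was not tested.

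Over all tested probe sets, replicate numbers did not pair the samples. Same-numbered arrays had deviations from their group means that correlated at 0.31, -0.23 and -0.050. Only AKR_F1 replicate 1 correlated best with its own number. Herpud1, Atf3 and the immediate early mean were nevertheless highest on replicate 3 of both groups. A replicate block lowered the SE of Herpud1 from 0.10 to 0.052 and of Atf3 from 0.58 to 0.12, but raised that of Hspa5 from 0.069 to 0.080. What same-numbered arrays share was not tested. With the replicate block 0 stress genes, 2 other ER pathway genes and 539 probe sets were called.

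For AKR_F1 replicate 3 alone and with the squamous covariate, in that order, the sign turned for Hsp90b1 (-0.018, -0.030), Sdf2l1 (-0.017, -0.027), Hspb1 (0.075, 0.044), Myc (0.063, 0.056), Myh1 (0.54, 0.13), Prdm1 (-0.22, -0.21) and Pvalb (0.94, 0.80), and for the first only in Krt13 (0.067). Erlec1 turned with the mean of probe sets (0.014) and the most variable one (0.065), and so did Stt3a with the latter (0.019). With 1 array left out, differences ran from -0.040 to 0.13 for Herpud1, -0.027 to 0.11 for Sdf2l1, -0.36 to 0.72 for Atf3, -0.28 to 0.094 for Hspb1 and -1.13 to 0.070 for Pvalb. The cause was not tested. Signals near the filter level are not separated from background.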
